A study of Homo sapiens with 12 samples.

Results

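The mitochondrial ribosomal protein genes are those whose symbol on the array begins with MRPL or MRPS and a digit, where L and S name the large and the small subunit. The platform annotation lists 108 array features (spots) under 78 such symbols, 72 features of 50 MRPL genes and 36 features of 28 MRPS genes, out of 43376 features in all. By RefSeq, 76 of the 78 are protein-coding, MRPL20-AS1 is a long noncoding RNA that overlaps MRPL20, and MRPL42P5 is a transcribed pseudogene. The genes lie on 21 chromosomes. Values were present for 88 features of 70 genes, 44 MRPL and 26 MRPS, and all results below are over these.

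The mitochondrial ribosome translates the few messenger RNAs that the mitochondrial genome encodes, all of them for subunits of the respiratory chain and ATP synthase. Its RNA comes from mitochondrial DNA, but all of its proteins are encoded in the nucleus, made in the cytosol and imported. Some have relatives in every ribosome, some only in bacterial ribosomes, and some are found only in mitochondria, and the names of the proteins give this by a first letter u, b or m. Of the 70 measured genes, 24 encode a universal protein, 18 a bacterial one and 26 a mitochondria-specific one, and 2 carry no such name in RefSeq.

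MIA PaCa-2, an established line of human pancreatic carcinoma cells, was exposed to a leaf extract of *Achyranthes aspera* (LE, 34 µg/mL, dissolved in methanol) for 24, 48 or 72 h, and the control cells received 2% methanol. Each array held LE-treated and control RNA of one time point in 2 colours, with 6 arrays for 24 h, 4 for 48 h and 2 for 72 h. LE-treated RNA carried Cy5 on 3, 2 and 1 of these arrays and Cy3 on the others. Cultures were set up in duplicate, and the labels do not tie arrays to cultures, so p-values measure the spread between arrays, which may be technical. The question was which genes differed in expression between LE-treated and control cells at each time.

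All values are log2 ratios, so they hold no level of expression, and the number of arrays limits their precision. The RNA was taken from whole cultures, in which fewer cells of a kind and less RNA per cell cannot be told apart. Ratios are likely LE over control, since the titles name treated before untreated RNA on all 12 arrays, but the sources used here do not state the direction for the 2 dye orientations, and the arrays do not settle it. Over 8828 genes, the 30 pairs of arrays with LE in the same dye correlated with a median r of 0.23, and the 36 pairs with LE in opposite dyes with a median r of -0.04, down to -0.35. Over the 70 members these medians were 0.19 and 0.0032, and 18 of the 36 opposite pairs were below 0. Correlations across genes are a description, since genes are not independent replicates. The deposited values also differed in form by dye. Their median number of decimals was 9 on each of the 6 arrays with LE in Cy5 and 6 on each of the 6 with LE in Cy3, and the cause was not tested. Key values are therefore given as deposited and also with the sign of the 6 arrays with LE in Cy3 turned, here called the turned reading. In the text, higher and lower refer to the deposited ratio above and below 0.

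A second property of the table bears on each member. Features that the annotation assigns to one transcript did not share their ratios. Over 167 accessions with at least 8 measured features each (1702 features), the intraclass correlation, which is 1 when features of one accession agree fully and 0 when they agree no better than features of different accessions, lay between -0.02 and 0.0072 on the 12 arrays. Over the 16 members with 2 or 3 measured features it lay between -0.24 and 0.27, with a median of -0.0049. Having a value or not was shared, however, by features of the cell type markers with at least 10 features. COL1A1 had values for 10 of 10 and HBB for 10 of 11, VWF and PTPRC for 0 of 11, and CDH1 and APOA1 for 0 of 10. Genes with fewer features showed both cases. VIM had values for 2 of 2 and MRPL35 for 3 of 3, but KRT18 for 1 of 4, KRT8 for 1 of 2 and MRPL49 for 1 of 3. Whether the rows of the table carry the feature numbers that the annotation uses could not be settled here, so a gene name may stand on a row of another gene. A value given for a gene is thus the value of the features that the annotation puts under its symbol, and no more. The cause was not tested.

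No probe sequence was used, so the letters shown are the windows from 250 bases before to 50 bases after the annotated start of the 2 members whose gene means passed an adjusted p of 0.05 (RefSeq, GRCh38.p14). Capitals mark matches to CCGGAAG, the core bound by ETS factors such as GABP, and to AAGATGG, a YY1 motif. These families and NRF1 (searched as GCGC, any base, then TGCGC) are known regulators of nuclear genes for mitochondrial proteins. The window of MRPL12 is chr17:81703117-81703416 on the plus strand, and that of MRPL20 is chr1:1407244-1407543 on the minus strand.
MRPL12: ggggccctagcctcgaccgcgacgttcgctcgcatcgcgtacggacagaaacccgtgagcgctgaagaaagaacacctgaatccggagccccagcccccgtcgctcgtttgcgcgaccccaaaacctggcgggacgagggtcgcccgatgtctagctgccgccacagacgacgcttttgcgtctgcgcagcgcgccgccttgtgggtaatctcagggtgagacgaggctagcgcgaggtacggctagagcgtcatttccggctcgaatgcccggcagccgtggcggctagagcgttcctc
MRPL20: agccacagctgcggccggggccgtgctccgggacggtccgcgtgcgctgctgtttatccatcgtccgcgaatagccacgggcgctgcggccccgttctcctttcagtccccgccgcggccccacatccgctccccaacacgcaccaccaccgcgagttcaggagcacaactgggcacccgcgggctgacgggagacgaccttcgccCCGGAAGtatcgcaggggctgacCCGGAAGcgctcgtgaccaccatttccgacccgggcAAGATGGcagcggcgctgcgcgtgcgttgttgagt
The window of MRPL20 held 2 ETS matches and 1 YY1 match, and that of MRPL12 held none of the 3 motifs. No match says only that these letters are not in this window. Both strands were searched, and although the end of the ETS motif can be the start of the YY1 motif, 0 of the 11 members' windows with both held them overlapping in this way.

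Windows were found for 69 of the 78 genes, 85 windows in all because 11 genes had several annotated starts. An ETS match on either strand lay in 34 windows (40%), a YY1 match in 26 (30.6%) and an NRF1 match in 10 (11.8%), against 10.3%, 5.84% and 5.78% of all 35116 windows of the reference table and 12.8%, 6.04% and 7.39% of the 22199 windows of protein-coding genes. At least 1 of the 3 was in 64.7% of the members' windows, 19.6% of all and 23.2% of those of protein-coding genes. Averaged over the times, the median log2 ratio was 0.07 for 30 genes with an ETS match and 0.10 for 32 without. It was 0.11 for 21 genes with a YY1 match and 0.08 for 41 without. It was 0.13 for 9 genes with an NRF1 match and 0.10 for 53 without. MRPL46 and MRPS11 start 320 bases apart on opposite strands of chromosome 15, so that their windows overlap, and their mean log2 ratios were 0.10 and -0.07, both within their standard errors of 0.11 and 0.14.

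Most members were measured. A feature has a value on all 12 arrays or on none, and 81.5% of the members' features had one, 81.9% (59 of 72) for MRPL and 80.6% (29 of 36) for MRPS, against 39.5% of all features (17134 of 43376) and 42.9% of those with 1 gene symbol. Of the features for the cytosolic ribosomal proteins (RPL and RPS) 81.4% had a value, of those for mitochondrial translation factors 78.9%, of those for mitoribosome assembly and rRNA modification 74.4%, of those for mitochondrial aminoacyl-tRNA synthetases, which charge the organelle's tRNAs, 55.2%, and of those for mitochondrial transcription and mRNA stability 52.6%. By the study's methods, spots were kept only when they passed intensity and quality limits on every array, in both colours. A further criterion there was that a feature changes in opposite directions at dye swap, which concerns the ratio and not the brightness. Of all features with a value, 0.414% lay on one side of 0 on all 12 arrays as deposited and 2% in the turned reading. How that criterion acted on the deposited values was not tested.

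**Figure D1:**
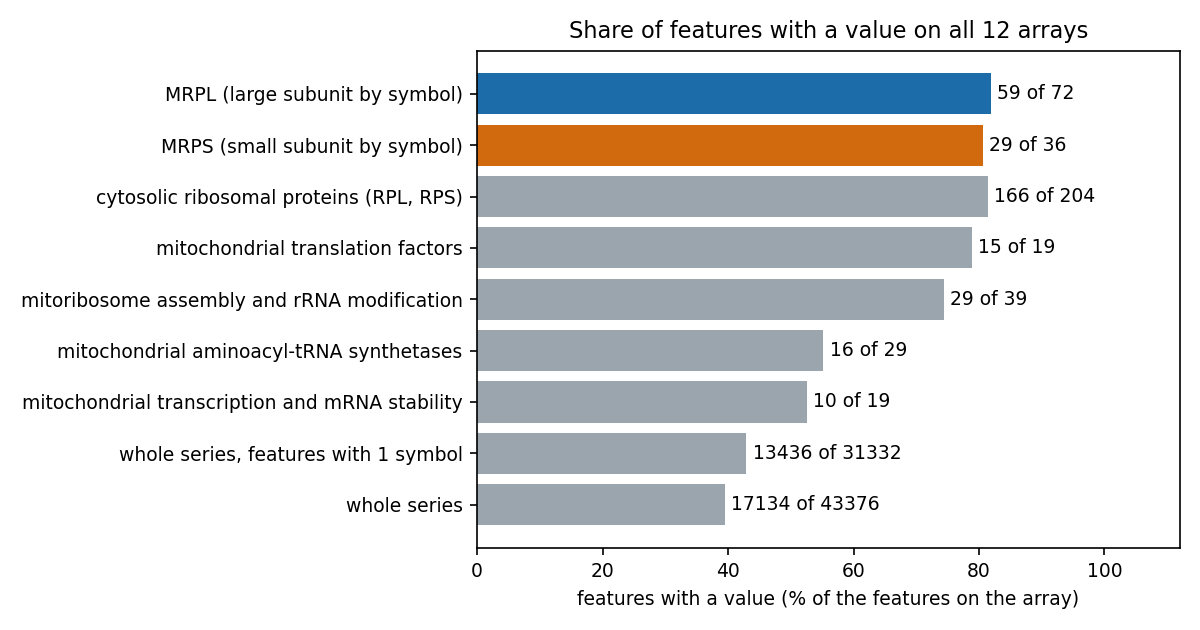
Percent of array features with a value on all 12 arrays, by gene group, with the counts beside each bar. The bars for MRPL (81.9%) and MRPS (80.6%) are close to that for cytosolic ribosomal proteins (81.4%) and above that for the whole series (39.5%).

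The 8 genes with no value had 1 feature each. They are MRPL1 and MRPL13, universal proteins of the large subunit, MRPL37, MRPL41 and MRPL44, mitochondria-specific proteins of the large subunit, of which MRPL44 has a fold related to RNase III, MRPS24 and MRPS27 of the small subunit, the latter a pentatricopeptide repeat protein, and the noncoding MRPL20-AS1. In the check of the cell type, KRT8, KRT18, KRT19 and MUC1 of 7 epithelial markers and VIM of 2 mesenchymal ones had values. No acinar, endocrine, endothelial or hepatocyte marker had one, while CD14 (immune), COL1A1 (fibroblast, 10 of 10 features) and HBB (erythroid, 10 of 11 features) did, and the part of other cells or of the annotation in this was not tested.

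No member feature passed an adjusted p of at most 0.01, the FDR limit of the study, in limma over all 17134 features at any time. The study used moderated F statistics and reported many genes past this limit at each time. The counts here come from a different fit and are not those of the study. At 24 h, 0 of 88 member features passed and 0% of all features did. At an unadjusted p under 0.05 there were 6 (4 higher, 2 lower), or 6.82% of the members, against 5.78% of all features (366 higher, 624 lower). At 48 h, 0 passed against 0% of all, and 8 had an unadjusted p under 0.05 (6 higher, 2 lower), 9.09% against 9.29% (877 higher, 714 lower). At 72 h, 0 passed against 0% of all, and 10 had an unadjusted p under 0.05 (7 higher, 3 lower), 11.4% against 8.99% (692 higher, 849 lower). In total these shares are near the background. At 24 and 72 h more of the members' calls were higher than lower, and more of those of all features were lower, a difference that was not tested.

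In the mean over the 3 time points, in which each time point has equal weight, 0 members passed 0.01 against 0.0525% of all features (9, all lower). At an unadjusted p under 0.05 there were 14 members (10 higher, 4 lower), 15.9% against 15.9% of all features (1276 higher, 1453 lower). In the turned reading there were 12, 13.6% against 20.5%. At an adjusted p of at most 0.05, 2 member features passed, 1 of MRPL12 and 1 of MRPS12, both lower, or 2.27% against 1.24% of all features. With features averaged by gene, MRPL12 alone passed 0.05 at 72 h, where 0.0566% of 8828 genes did, and MRPL12 (lower) and MRPL20 (higher) passed in the mean, where 1.27% did. In the turned reading neither passed, and MRPL51 did, against 2.34% of genes.

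Differences between time points were tested as well. Between 48 and 24 h, 0 members passed 0.01 (0% of all). An unadjusted p under 0.05 was found for 4, all 4 higher at 48 h, against 4.82% of all features (453 higher, 373 lower). Between 72 and 24 h, 0 passed (0% of all) and 5 had such a p, against 3.9%. Between 72 and 48 h, 0 passed (0% of all) and 3 had such a p, against 3.9%. The smallest adjusted p of a member gene was 0.20 for MRPL12 between 72 and 24 h.

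Members kept to one side of 0 on all arrays of a time about as often as other features did. At 24 h, 2 of 88 features lay on one side of 0 on all 6 arrays (2.27%, against 2.81% of all features), at 48 h 12 on all 4 (13.6%, against 14%) and at 72 h 44 on both (50%, against 54.1%). On all 12 arrays, 1 member feature did, a feature of MRPS12, against 0.414% of all features. In the turned reading 1 member feature did, that of MRPL51, against 2% of all features. The mean had the same sign at 24, 48 and 72 h in 45 of 88 features (51.1%, against 40.8% of all), and in the turned reading in 46 (52.3%, against 52.7%).

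By subunit, ratios lay close to 0. The median log2 ratio of the 44 MRPL genes, averaged over arrays, was 0.03 ± 0.07 (SD, n = 6) at 24 h, 0.05 ± 0.05 (n = 4) at 48 h and 0.17 ± 0.09 (n = 2) at 72 h. That of the 26 MRPS genes was 0.10 ± 0.16, -0.02 ± 0.13 and 0.06 ± 0.13. The median over all genes was 0.02 ± 0.04, 0.01 ± 0.03 and 0.04 ± 0.0077. The median of MRPL exceeded that of MRPS on 7 of 12 arrays, and their difference ranged from -0.39 (24 h replicate 5) to 0.26 (48 h replicate 1), so neither subunit was above the other on every array. The MRPL median at 72 h was 0.23 on the array with LE in Cy3 and 0.10 on that with LE in Cy5, which gives -0.06 in the turned reading.

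More members lay above 0 than below it. At 24 h the mean of 44 of 70 member genes was above 0 (62.9%, against 52.8% of all genes), at 48 h of 36 (51.4%, against 50.4%) and at 72 h of 46 (65.7%, against 54.4%). In the mean over the time points 29 of 44 MRPL genes (65.9%) and 15 of 26 MRPS genes (57.7%) were above 0, against 53.5% of all genes. The median of the 70 genes was 0.11 and that of all genes 0.02. In the turned reading 35 of 70 were above 0 and the median was 0.01, against 4711 of 8828 genes and a median of 0.02. By origin, 20 of 26 genes for mitochondria-specific proteins were above 0 (76.9%, median 0.15). So were 13 of 24 for universal proteins (54.2%, median 0.06) and 10 of 18 for bacterial ones (55.6%, median 0.03). In the turned reading these counts were 13, 12 and 8.

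**Figure D2:**
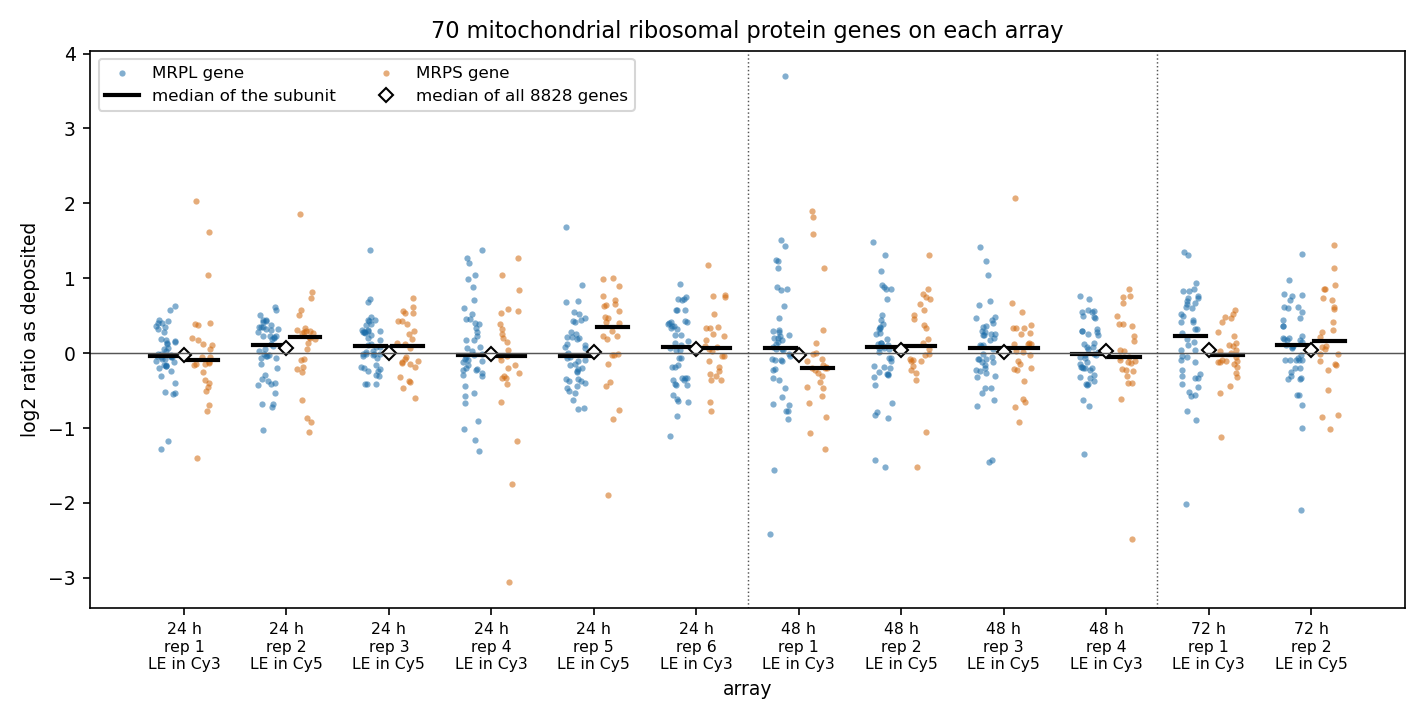
Deposited log2 ratio of each of the 70 measured members (points, MRPL blue, MRPS orange) on each of the 12 arrays, with the median of each subunit (black lines) and of all genes (diamonds). Medians lie close to 0 on every array, and single members reach 3.70 (MRPL14, 48 h replicate 1) and -3.06 (MRPS17, 24 h replicate 4).

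The lowest member was MRPL12 (bL12m, GRCh38.p14 chromosome 17, 81703367 to 81707517), the mitochondrial relative of the bacterial stalk protein L7/L12, which recruits translation factors to the ribosome. Its log2 ratios were 0.32, 0.23, -0.41, 0.71, -0.34 and -0.15 at 24 h, 0.31, -0.79, -0.70 and -0.42 at 48 h, and -2.01 and -2.09 at 72 h. Both arrays of 72 h lie below the 10 others, while the values of 24 and 48 h overlap. The means were 0.06 ± 0.43 (SD, n = 6), -0.40 ± 0.50 (n = 4) and -2.05 ± 0.06 (n = 2), the last a ratio of 0.241. MRPL12 has 1 feature on the array. Tested among features, its adjusted p was 0.081 for 72 h alone, above 0.05, and 0.024 for the average of the times. Tested among genes, the adjusted p was 0.041 for 72 h alone and 0.021 for the average of the times (log2 ratio -0.80, SE 0.14). MRPL12 was lower on 8 of 12 arrays. Without 1 array of 72 h, the adjusted p in the mean was 0.16 (replicate 1) or 0.11 (replicate 2), and without 48 h replicate 3 it was 0.055. At 72 h it lay between 0.013 and 0.36 over the 12 arrays left out in turn, and was above 0.05 in 9 of the 12 cases, the exceptions being 24 h replicates 4 and 5 and 48 h replicate 1. Both 72 h arrays had the same sign with LE in opposite dyes, so that the turned reading gives -0.04 at 72 h and -0.21 (adjusted p = 0.73) in the mean.

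The neighbours of MRPL12 in the stalk had values closer to 0 than MRPL12 at 48 and 72 h. MRPL10 (uL10m), which anchors the stalk, had means of 0.02, 0.12 and -0.31 at the 3 times, and MRPL11 (uL11m), at the base of the stalk, had 0.20, -0.09 and -0.32. Their adjusted p in the mean were 0.88 and 0.85. The 2 features of MRPL10 had means of -0.29 and 0.17.

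The other member whose gene mean passed 0.05, on the high side, was MRPL20 (bL20m, chromosome 1, 1401909 to 1407293), whose bacterial relative binds early in the assembly of the large subunit. Its log2 ratios were -0.04, 0.37, 0.18, -0.20, -0.37 and 0.58 at 24 h, 1.24, 1.10, 0.24 and 0.48 at 48 h, and 0.93 and 0.98 at 72 h. At 48 and 72 h all 6 arrays were above 0, and the values of 24 and 48 h overlap. The mean over the time points was 0.60 (SE 0.13, adjusted p = 0.041), a ratio of 1.52, higher on 9 of 12 arrays. The adjusted p was above 0.05 in 10 of the 12 cases with 1 array left out, up to 0.22 without 72 h replicate 1, and stayed under it only without 24 h replicate 4 or replicate 5 (lowest value 0.049). MRPL20 has 2 features on the array, of which 1 had values. For that feature, tested among features, the adjusted p was 0.055. The turned reading gives -0.03.

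MRPL21 (bL21m), another relative of a bacterial protein, had the highest mean of all members, 0.64 (SE 0.19), and did not pass (adjusted p = 0.11). It lay above 0 on 11 of 12 arrays, with 24 h values from -0.17 to 1.69 (median 0.38), 48 h values of 0.47, 1.48, 0.05 and 0.24, and 72 h values of 0.69 and 0.71. Its 3 time points overlap, and the turned reading gives 0.11.

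**Figure D3:**
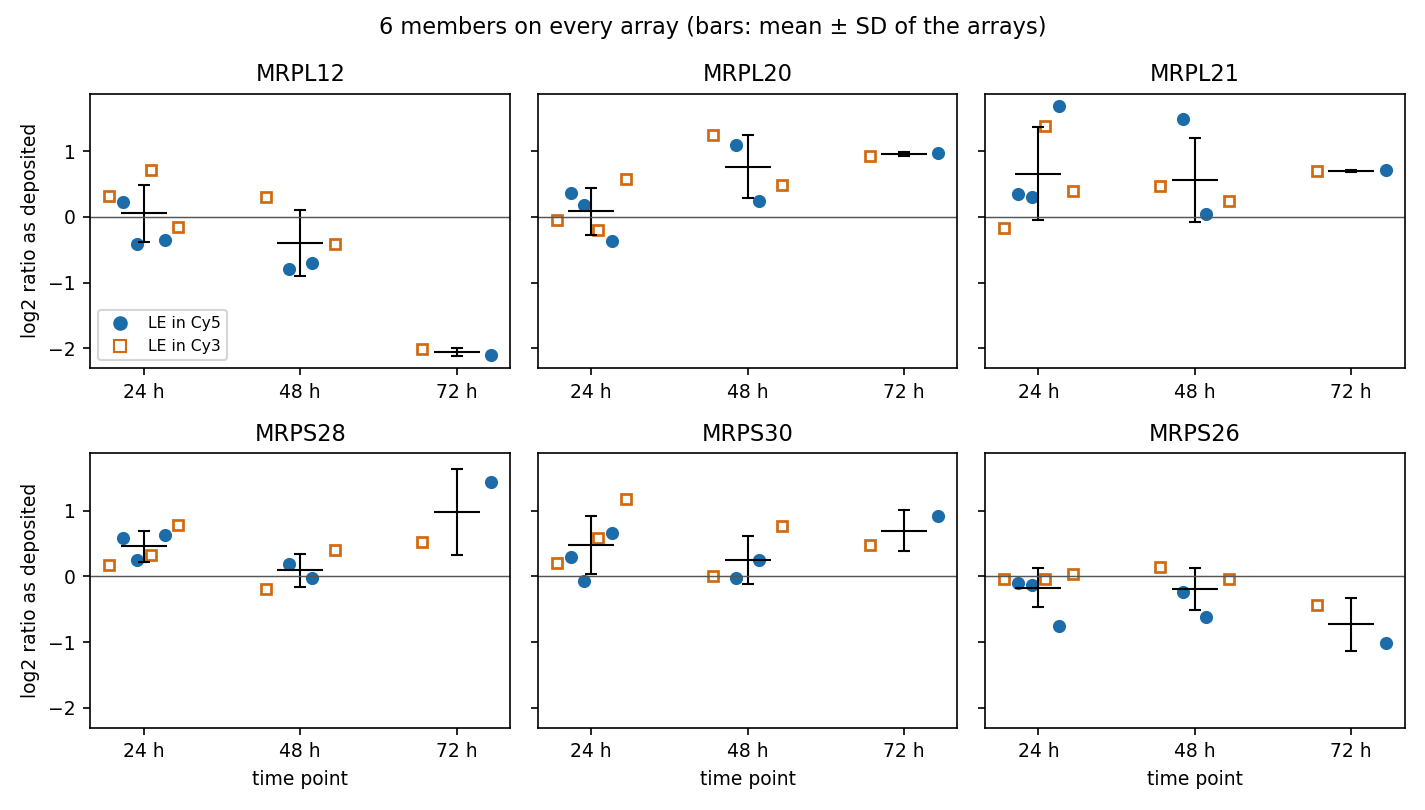
Deposited log2 ratio of 6 members on each array by time point, with filled circles for LE in Cy5, open squares for LE in Cy3, and bars for the mean ± SD of the arrays of a time. MRPL12 lies at -2.01 and -2.09 at 72 h, below its 10 other arrays, and MRPS28 lies above 0 on all 6 arrays of 24 h.

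In the small subunit no gene mean passed 0.05 in any comparison of the fit with time terms alone. MRPS28 (chromosome 8, 79918717 to 80030259), a protein of the small subunit, had 0.18, 0.58, 0.25, 0.32, 0.64 and 0.78 at 24 h, -0.20, 0.19, -0.02 and 0.40 at 48 h, and 0.52 and 1.44 at 72 h. It lay above 0 on all arrays of 24 and 72 h and on 2 of 4 at 48 h. Its mean was 0.51 (SE 0.12, adjusted p = 0.055), and 0.16 in the turned reading. With the replicate number as a block in limma, the adjusted p of MRPS28 in the mean was 0.043.

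MRPS30 and MRPS18A carry an S in their symbols, but their protein names, mL65 and mL66, place them in the large subunit. MRPS30 had a mean of 0.48 (SE 0.13, adjusted p = 0.10), above 0 on 10 of 12 arrays and highest at 24 h replicate 6 (1.18), and -0.03 in the turned reading. MRPS18A had a mean of 0.44 (adjusted p = 0.26), and -0.28 in the turned reading. Its paralogues MRPS18B (mS40) and MRPS18C (bS18m) belong to the small subunit and had means of 0.33 and 0.29 (adjusted p = 0.42 and 0.40).

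On the low side, MRPS26 (mS26) had a mean of -0.36 (SE 0.12, adjusted p = 0.15) and lay below 0 on 10 of 12 arrays, with -0.44 and -1.01 at 72 h. The turned reading gives -0.23, so MRPS26 kept its sign. MRPL53 (mL53) had the same mean of -0.36 (SE 0.23), which rests on 48 h replicate 1 (-2.41, with the other 3 arrays of 48 h between -0.12 and 0.29), without which the mean is -0.15, and the turned reading gives 0.39.

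MRPS17 (uS17m), a universal protein of the small subunit, held the lowest value of any member on any array. At 24 h it had -0.51, 0.05, 0.30, -3.06, -1.89 and -0.04, and at 48 h 1.14, 1.31, 0.01 and 0.37. Its means of -0.86 and 0.71 differed by 1.57 (SE 0.58), with an adjusted p of 0.99. MRPL14 (uL14m) had the highest mean at 48 h, 0.82 ± 1.93 (SD, n = 4), set by 3.70 on replicate 1, where the other 3 arrays lay between -0.42 and 0.07.

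Genes for proteins near the working centres of the ribosome lay on both sides of 0. In the large subunit MRPL2 (uL2m), MRPL3 (uL3m) and MRPL4 (uL4m), whose bacterial relatives lie close to the site of peptide bond formation or line the exit tunnel, had means of 0.36, -0.15 and 0.11. Around the end of the exit tunnel, where the new chain leaves towards the inner membrane, MRPL22 (uL22m), MRPL23 (uL23m), MRPL24 (uL24m) and MRPL47 (uL29m) had 0.06, 0.23, 0.10 and -0.24. MRPL45 (mL45), which ties the ribosome to the membrane there, had 0.36. The adjusted p of these 8 genes lay between 0.18 (MRPL2) and 0.82 (MRPL22), and 3 of them, MRPL2 (0.10), MRPL4 (0.30) and MRPL22 (0.08), kept their sign in the turned reading. On the arrays with LE in Cy3 alone, however, MRPL4 had -0.19 and MRPL22 had -0.017.

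In the small subunit MRPS12 (uS12m) and MRPS5 (uS5m), whose bacterial relatives act in decoding and its accuracy, had means of -0.29 and -0.26 (adjusted p = 0.37 and 0.64). MRPS2 (uS2m), MRPS7 (uS7m), MRPS15 (uS15m) and MRPS16 (bS16m), which bind the ribosomal RNA, had 0.06, 0.20, -0.10 and -0.08, and MRPS6 (bS6m) had -0.14. The mean of MRPS7 was 0.04 without 48 h replicate 1 (1.59, with the other 3 arrays of 48 h between -0.61 and -0.18). MRPS22 (mS22), a mitochondria-specific protein, had 0.14. None of these had an adjusted p under 0.37.

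MRPL51 (mL51, chromosome 12, 6491886 to 6493262), a mitochondria-specific protein of the large subunit, was singled out after its values were seen. With LE in Cy3 its ratios were 0.36, 1.20 and 0.04 at 24 h, 1.51 and 0.50 at 48 h and 0.83 at 72 h. With LE in Cy5 they were -0.03, -0.19 and -0.74 at 24 h, -1.52 and -1.45 at 48 h and -1.002 at 72 h. The sign thus followed the dye on all 12 arrays. The mean was -0.07 as deposited and -0.86 in the turned reading (adjusted p = 0.020).

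**Figure D4:**
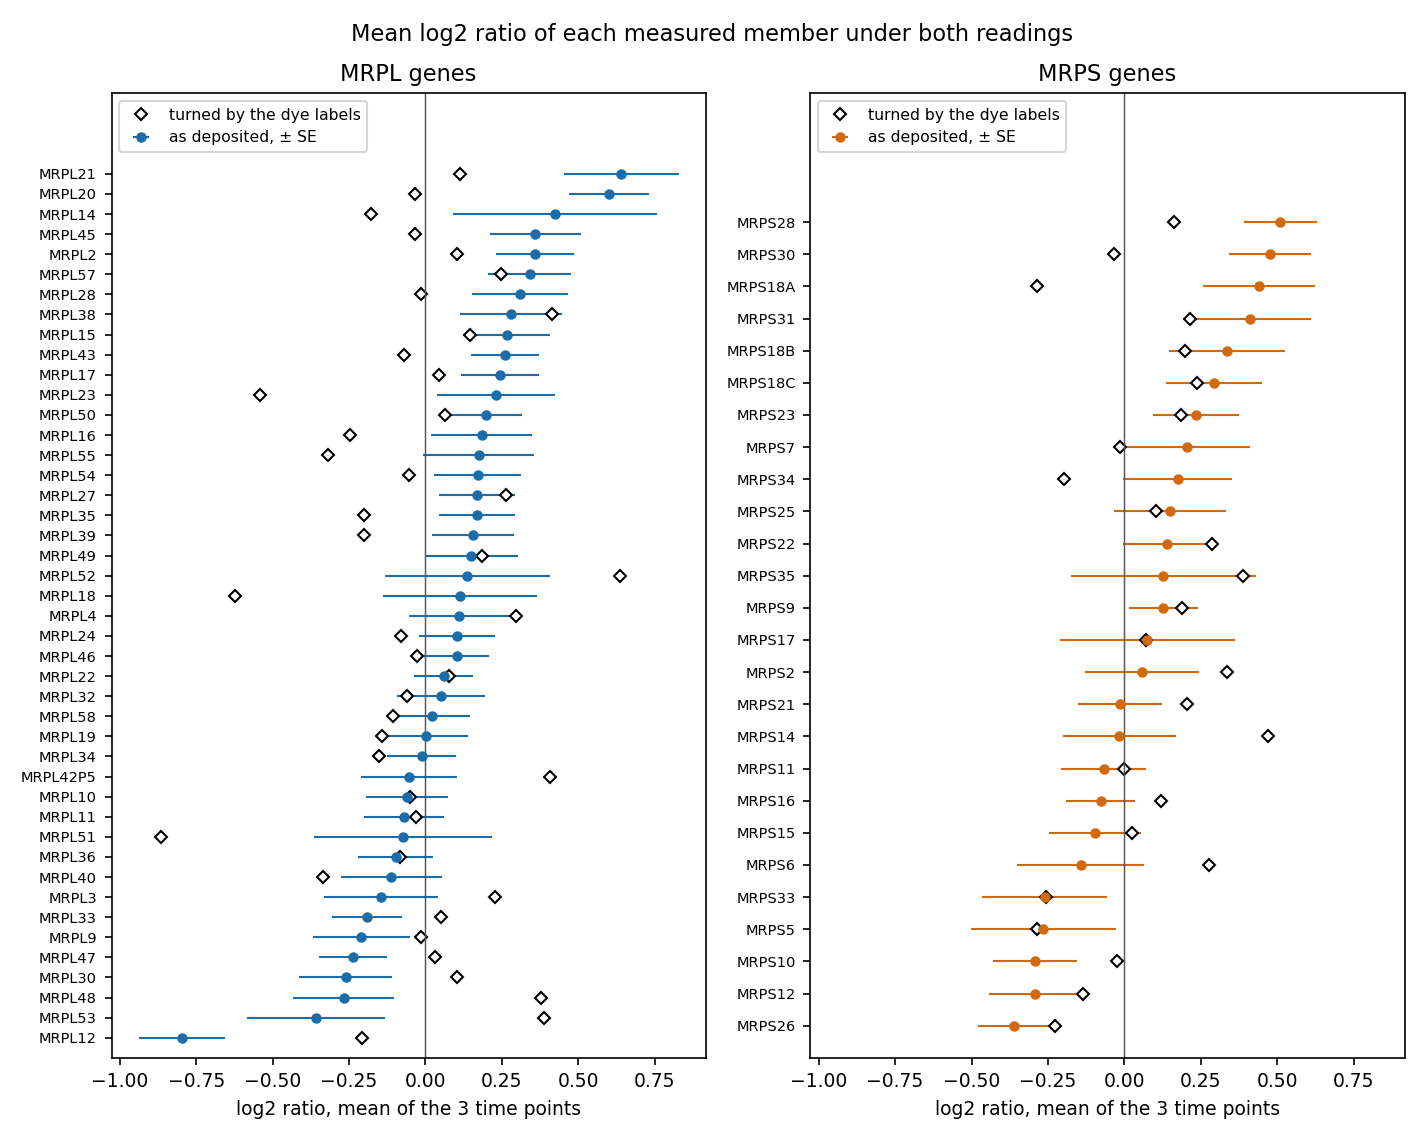
Log2 ratio of each of the 70 members in the mean over the 3 time points, as deposited (filled circles with SE bars) and in the turned reading (open diamonds). MRPL12 (-0.80) and MRPL21 (0.64) mark the ends as deposited, and MRPL51 (-0.86) lies lowest in the turned reading.

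Agreement among features of one member was low. Of the 16 members with 2 or 3 measured features, all features had the same sign in the mean over the time points in 10 and opposite signs in 6, which were MRPL10, MRPL34, MRPL35, MRPL50, MRPS11 and MRPS12. The gap between the highest and the lowest feature had a median of 0.24. The correlation of features of one gene over the 12 arrays had a median of 0.10 and was below 0 in 6 of 16 genes, where the points share arrays and labelling.

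The widest gap, 1.16, was in MRPS12, whose 2 measured features are of one accession. The first feature had -0.04, -0.86, -0.56, -0.37, -0.83 and -1.48 at 24 h, -0.48, -0.45, -1.35 and -0.52 at 48 h, and -1.19 and -1.27 at 72 h. It lay below 0 on all 12 arrays, with a mean of -0.87 (SE 0.15, adjusted p = 0.016 over all features, and -0.10 in the turned reading). The adjusted p was 0.15 without 72 h replicate 1 and 0.094 without 72 h replicate 2, and between 0.016 and 0.042 with any other array left out. The second had -0.47, -0.39, 0.34, 1.16, 2.25 and 0.76 at 24 h, 0.08, 0.56, -0.49 and -0.08 at 48 h, and 0.89 and -0.42 at 72 h, with a mean of 0.29 (SE 0.24). Its values lie on both sides of 0 at each time.

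Other genes with several features showed both cases. The 2 features of MRPL2 had means of 0.63 (SE 0.16, adjusted p = 0.069) and 0.08. The 2 of MRPL30 (uL30m) had -0.27 and -0.25 and correlated over arrays with r = 0.53. The 3 of MRPL43 (mL43) had 0.06, 0.31 and 0.41, and the 3 of MRPL35 (bL35m) had -0.09, 0.27 and 0.33.

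**Figure D5:**
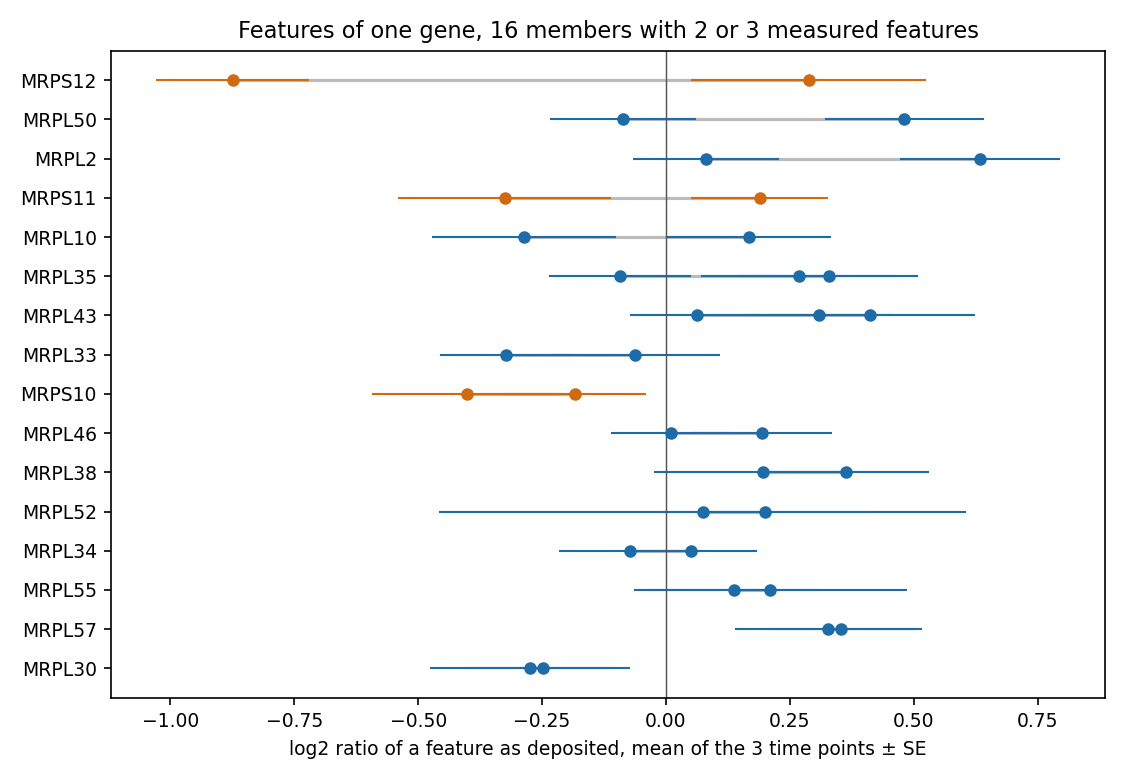
Log2 ratio of each feature in the mean over the 3 time points (points with SE bars, MRPL blue, MRPS orange) for the 16 members with 2 or 3 measured features, ordered by the gap between features (grey lines). MRPS12 has the widest gap (1.16), and MRPL30 one of the narrowest.

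Genes that act with the mitochondrial ribosome were taken from 5 lists. None but NOA1 passed 0.01 in the mean over the time points, where 7 of 8828 genes did (0.0793%). Of 23 measured assembly and rRNA modification genes, 8 were above 0 in the mean over the time points and 15 below, with a median of -0.03. At 24, 48 and 72 h, 15, 11 and 9 of these genes were above 0. With the signs turned, 13 were above 0 in the mean, with a median of 0.02. NOA1, a GTPase that is needed for assembly of the small subunit, had a mean of -0.89 (SE 0.11, adjusted p = 0.005 among genes), below 0 on all 12 arrays, and 0.01 in the turned reading. Its values rest on 1 measured feature. DDX28, a helicase, and FASTKD2, an RNA-binding protein, both of large subunit assembly, had -0.74 and -0.62 (both with an adjusted p of 0.12). They had 0.21 and 0.18 in the turned reading.

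Of 12 translation factors 6 were above 0 (8 in the turned reading), with a median of -0.05. TUFM, the elongation factor that brings aminoacyl-tRNA, had -0.56, its exchange factor TSFM had 0.65 and the initiation factor MTIF2 had -0.43 (adjusted p = 0.13, 0.060 and 0.14). TUFM, TSFM and MTIF2 had 0.36, 0.32 and 0.0034 in the turned reading. Of 13 aminoacyl-tRNA synthetases 6 were above 0 (median -0.02), and 7 in the turned reading. The 3 with the smallest p, WARS2, PARS2 and HARS2, had 0.30, 0.22 and -0.31 (adjusted p = 0.23, 0.46 and 0.50). They had -0.08, -0.25 and 0.21 in the turned reading. Of 8 transcription and mRNA stability genes 4 were above 0 (median 0.00045), and 7 in the turned reading. The 3 with the smallest p, TEFM, LRPPRC and MTPAP, had -0.41, -0.41 and 0.31 (adjusted p = 0.15, 0.17 and 0.56). They had -0.05, 0.29 and 0.22 in the turned reading. Of 4 mitoribosome proteins without an MRPL or MRPS symbol 2 were above 0 (median -0.12), and 2 in the turned reading. CHCHD1 was at -0.40, PTCD3 at -0.26 and DAP3 at 0.16 (adjusted p = 0.17, 0.63 and 0.69). They had -0.0014, 0.32 and -0.09 in the turned reading. Of the 69 cytosolic ribosomal protein genes 32 were above 0 (37 in the turned reading), with a median of -0.01. Of all genes measured 53.5% were above 0, with a median of 0.02.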

How the data were processed

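The authors scanned 12 two-colour Agilent whole human genome arrays, set aside spots that failed quality limits on any array, normalized ratios within arrays by lowess and between arrays by the quantile method in limma, and deposited one log2 ratio per feature and array. Software versions were not used here. Array totals, raw intensities and the ratio's direction were not given in the sources used here. Blank features were left out, and genes were taken from the platform annotation, with features of 1 symbol averaged by gene. Chromosome positions, protein names and promoter windows came from RefSeq (GRCh38.p14).

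Each feature was fitted with 1 term per time point over all 12 arrays in limma 3.58.1 (R 4.3.3; 9 residual degrees of freedom, prior 6.2 for features and 4.69 for genes), and p-values were adjusted by the Benjamini-Hochberg method over 17134 features or 8828 genes. The script was tested on simulated data. Members and lists were chosen with earlier results of these data known. Named members are the 3 highest and 3 lowest at each time and in the mean, those past 0.05, on one side of 0 on all arrays, with the most features, with none, or of a fixed role. Of each list, the 3 genes of smallest p were named. The rule also listed NOA1 because an earlier account of these data names it. Alternatives tried were the turned ratios, a dye term, a replicate block, each dye orientation alone, centring, scaling and quantile normalization of arrays, robust variance, an adjusted p of 0.05, gene means, each time alone, and each array left out.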

Additional observations from a re-analysis of the deposited data

Results flagged for a closer look

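For each of the 34 named and measured members and both subunit medians, at 24 and at 48 h, the array farthest from the others was compared with the range of its time point, with Dixon's test. It set apart 6 of 72 groups of arrays. Chance alone sets apart about 1 in 20 groups, but many of these members were named for their extreme means, MRPL14 and MRPL53 for those at 48 h, so the count cannot be read against that rate. On replicate 1 of 48 h, MRPL14 had a log2 ratio of 3.70 (the other 3 arrays between -0.42 and 0.07), MRPL53 one of -2.41 (between -0.12 and 0.29) and MRPS2 one of -1.28 (between 0.37 and 0.39). On replicate 5 of 24 h, MRPS16 had 0.62 (the other 5 arrays between -0.27 and 0.04) and MRPS26 had -0.76 (between -0.13 and 0.03). The median of the MRPL genes was -0.02 on replicate 4 of 48 h, where the other 3 arrays lay between 0.07 and 0.08. Over the 70 members, the SD of the log2 ratios was 0.88 on replicate 1 of 48 h, the highest of the 12 arrays, and that over all genes was 0.90 there, also the highest.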

How the results depend on the processing

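No member feature passed an adjusted p of 0.01 in any of the 7 comparisons under any alternative run, and 263 values of the counts, subunit medians and measured share stayed within 1.5 times the count or within the spread between arrays. The exceptions, 3 in all, were the count in the mean over the time points at an adjusted p of 0.05, which was 2, the median of MRPL genes at 72 h in the turned reading, which was -0.065, and the share measured, which was 89.7% of genes in place of 81.5% of features. Of the named members, the mean over the time points changed sign in the turned reading for MRPL14 (-0.18), MRPL20 (-0.033), MRPL23 (-0.54), MRPL24 (-0.079), MRPL3 (0.23), MRPL30 (0.10), MRPL35 (-0.20), MRPL43 (-0.07), MRPL45 (-0.034), MRPL47 (0.032), MRPL53 (0.39), MRPS15 (0.025), MRPS16 (0.12), MRPS18A (-0.28), MRPS30 (-0.033), MRPS6 (0.28) and MRPS7 (-0.015). With 1 array left out it ranged from -0.0024 to 0.46 for MRPL23, -0.015 to 0.22 for MRPL24, -0.24 to 0.042 for MRPL36, -0.029 to 0.25 for MRPL4, -0.0020 to 0.22 for MRPS17 and -0.024 to 0.20 for MRPS2, each spanning 0. MRPL3 ranged from -0.24 to just below 0. With arrays of one dye orientation alone, an alternative added after seeing the data, the sign changed on those with LE in Cy5 for MRPL23 (-0.31), MRPL3 (0.082), MRPL35 (-0.034), MRPL53 (0.028), MRPS16 (0.042) and MRPS6 (0.13), and on those with LE in Cy3 for MRPL22 (-0.017), MRPL4 (-0.19), MRPS2 (-0.28), MRPS22 (-0.15) and MRPS5 (0.021). The causes were not tested.

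The time points share replicate numbers, but these also fix the dye of LE. Deviations of arrays with the same number correlated with r between 0.06 and 0.50, above 0.1 in 6 of 8 pairs, and the dye was shared in each. An array correlated best with that of its own number in 10 of 16 comparisons. Since neither held throughout, and no label ties a number to a culture or day, the numbers were not taken to pair the arrays, which leaves pairing possible. With the replicate number as a block, 0 member features passed 0.01 in each comparison, and the mean over the time points changed sign for MRPL11 (0.020), MRPL4 (-0.027), MRPS17 (-0.14) and MRPS5 (0.14). At an adjusted p of 0.05 in the mean it called 3 member genes in place of 2, and 3.9% of all genes in place of 1.27%. MRPL12 had 0.018, MRPL20 0.084, MRPS28 0.043 and MRPS30 0.032. Counting MRPS30 and MRPS18A with the large subunit, and accessions in place of features, were choices made after seeing the data. They moved the subunit medians by less than the spread between arrays, and gave a measured share of 86.9% of accessions. With 2 arrays at 72 h, a difference there is judged mostly by the spread at the other times.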
